A study of Mus musculus with 6 samples.

Results

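The genes described here encode the Janus kinases (Jak1, Jak2, Jak3 and Tyk2), STAT3 and STAT6, and 4 suppressors of cytokine signalling (Socs1, Socs2, Socs3 and Cish). They were chosen by gene symbol, and all 10 have a row among the 45193 genes of the count table. A low-count filter left 12011 genes for testing, 8 of these 10 among them; Socs2 and Cish had too few reads. RNA was sequenced from bone marrow-derived macrophages of 2 genotypes, 3 libraries each, grown for 6 days with L929 conditioned medium, which supplies the macrophage growth factor CSF-1. The wild-type (WT) group came from C57BL/6J mice. The knockout group was of genotype RXRafl/flLysMCre RXRb-/- on the same background: loxP-flanked alleles of the retinoid X receptor gene Rxra, Cre recombinase driven from the lysozyme M locus, which is active in myeloid cells, and both copies of Rxrb inactivated. Cells of both genotypes were moved to serum-free medium and received only the solvent DMSO for 3 hours, so no cytokine or receptor ligand was added. The labels give no Cre for the WT cells, so effects of RXR loss, Cre and the altered lysozyme locus cannot be told apart. The labels call the replicates biological without naming animals, so a p-value reflects only how far these libraries scatter.

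Many cytokine receptors have no kinase of their own. Janus kinases (JAKs) sit on their tails and, once a cytokine joins the receptor chains, phosphorylate STAT proteins, which enter the nucleus and switch on genes, the SOCS genes among them. SOCS proteins and CIS, the product of Cish, then bind the receptors or kinases and damp the signal, which makes their transcripts common readouts of recent cytokine signalling. In macrophages STAT3 carries the signals of IL-10 and IL-6, and STAT6 those of IL-4 and IL-13.

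Stretches before the RefSeq starts of the genes that passed the test are shown first, because STAT proteins act on SOCS genes through short palindromic sites. RefSeq promoter windows (GRCm38.p6, 250 bases before to 50 after a gene's start) were matched for 9 of the 10 genes. The motifs searched were TTCNNNGAA, the site bound by most STATs, TTCNNNNGAA, the wider form preferred by STAT6, and AGGTCA, the half-site of RXR partner receptors, each on both strands. No window of these genes held overlapping motifs. Capitals mark TTCNNNGAA, and each stretch stops short of the nearest GENCODE M21 exon. Those of Jak3 and Stat3 lie upstream of the gene, and that of Socs3 lies between exons of its GENCODE span, which begins further upstream than the RefSeq start.
Socs3, chr11:117969452-117969616, minus strand: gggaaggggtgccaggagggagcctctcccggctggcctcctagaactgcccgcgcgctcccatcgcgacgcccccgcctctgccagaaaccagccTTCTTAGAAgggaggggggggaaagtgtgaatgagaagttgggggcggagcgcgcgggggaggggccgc
Stat3, chr11:100939541-100939790, minus strand: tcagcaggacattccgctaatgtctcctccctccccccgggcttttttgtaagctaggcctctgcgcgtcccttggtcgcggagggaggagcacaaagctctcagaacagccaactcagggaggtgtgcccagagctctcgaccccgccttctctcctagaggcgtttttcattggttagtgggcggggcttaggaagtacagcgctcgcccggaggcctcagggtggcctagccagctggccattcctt
Jak3, chr8:71676133-71676295, plus strand: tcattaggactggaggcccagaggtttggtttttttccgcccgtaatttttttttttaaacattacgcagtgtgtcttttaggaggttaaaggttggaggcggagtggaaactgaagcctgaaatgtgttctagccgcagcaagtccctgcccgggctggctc

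The Socs3 window held TTCTTAGAA, starting at position -154 from the RefSeq start, and the Cish window held TTCCTGGAA and TTCTTGGAA, just downstream of its start at positions 1 and 12. No other matched gene held TTCNNNGAA, none held TTCNNNNGAA, and AGGTCA occurred once, at position -169 of Stat6. Among all 32851 RefSeq windows of this length, 8.3% held TTCNNNGAA, 6.95% TTCNNNNGAA and 16.3% AGGTCA. A match describes the letters only, and binding was not measured.

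Total counts ran from 7880320 to 14957253 in WT and from 17250051 to 25091019 in the knockout, so depth and genotype cannot be told apart. Rxrb, the gene inactivated in all cells, fell from 66.7 ± 1.86 to 9.27 ± 2.09 CPM (CPM, read counts relative to the TMM-scaled library size, mean ± SD, n = 3). Rxra stood at 104 ± 6.7 and 109 ± 4.83 CPM, and counts over the whole gene do not test the loss of its floxed part. Lyz2, at the Cre locus, fell from 15300 ± 594 to 28.4 ± 6.12 CPM. The macrophage markers Csf1r (2220 and 2910 CPM in WT and knockout) and Adgre1 (1920 and 1900 CPM) were abundant. The 10 neutrophil markers summed to 1120 to 1280 CPM in WT and 1040 to 1170 CPM in the knockout, with Mpo and Elane among the 3 that fell and 1 that rose. Summed markers of dendritic, T and NK, mast and erythroid cells did not exceed 3.1 CPM in any library, with Hba-a1, Hbb-bs and Hbb-bt at 0 throughout. The 5 B cell markers summed to 4.83 to 5.81 CPM in WT and 1.71 to 2.85 CPM in the knockout, and the only one tested, Cd79b, fell. The 6 stromal markers summed to 9.65 to 11.6 CPM in WT and 4.45 to 10.4 CPM in the knockout, and 1 of the 3 tested, Col3a1, fell. Whether other cells contribute to the differences below was not tested. In bulk RNA, fewer cells of a type and less RNA per cell cannot be told apart.

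Knockout macrophages had less Socs3, slightly less Jak3 and slightly more Stat3 than WT, while Jak1, Jak2, Tyk2, Stat6 and Socs1 did not pass the test. Of the 8 tested genes 1 rose and 2 fell (edgeR quasi-likelihood test, Benjamini-Hochberg adjusted over 12011 genes). Over all tested genes, 19.4% were called, 9.77% higher and 9.61% lower. CPM ranges of the genotypes did not overlap for 4 of the 8, where 36.9% of all tested genes showed this. With so few genes, these counts do not set the family apart from the rest of the transcriptome. The call of Socs3 held in each of 16 other fits, whereas those of Jak3 and Stat3 held in 8 and 7 of them.

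**Figure D1:**
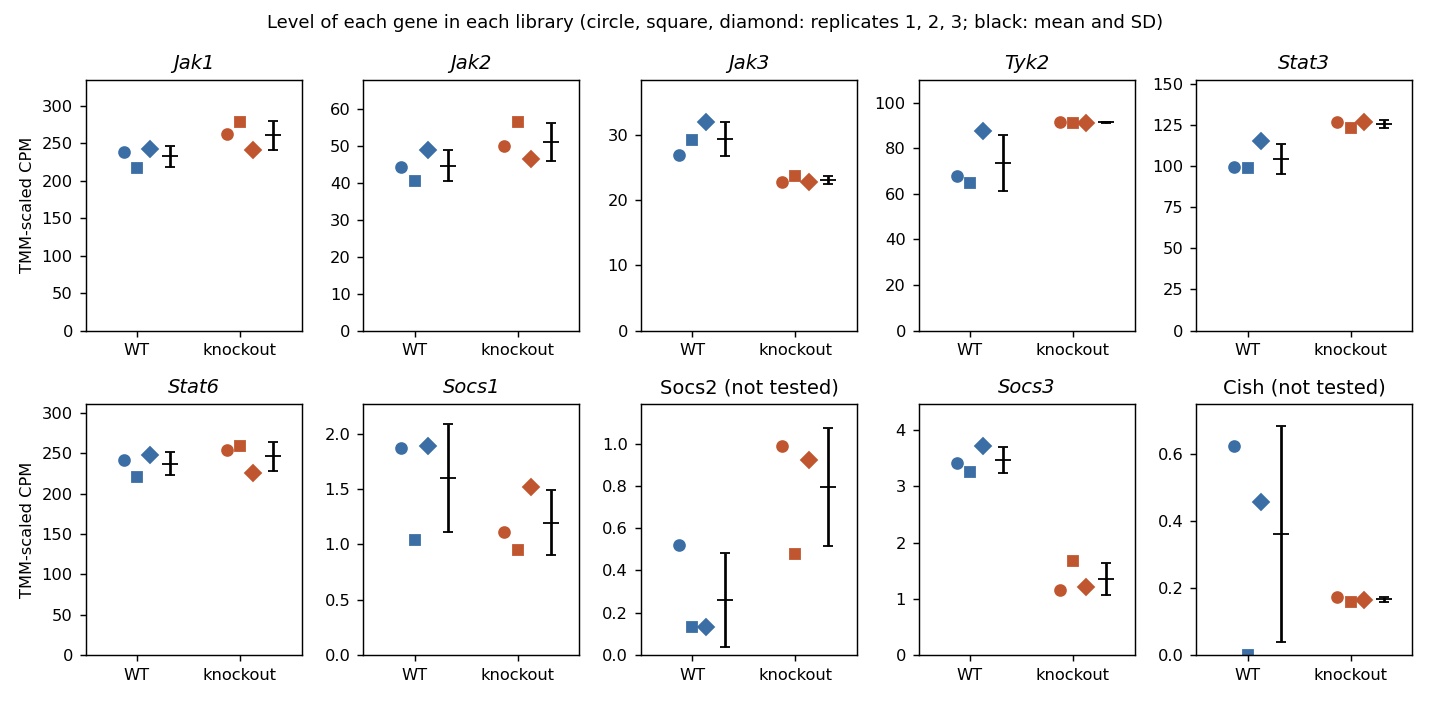
TMM-scaled CPM of each of the 10 genes (vertical axis from 0, scaled per gene) in the 3 WT (blue) and 3 knockout (orange) libraries, with mean and SD in black. Socs3 lies between 3.26 and 3.72 CPM in WT and between 1.16 and 1.67 CPM in the knockout, while Jak1 and Stat6 overlap between genotypes.

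Levels per transcript length differed widely within the family. On the TPM scale (reads per exon base, as transcripts of a library scaled to the same total), Stat6 was the most abundant in WT, at 170 ± 21.7 TPM, followed by Jak1 at 102 ± 12.9 TPM. Stat3 (34.7 ± 5.41 TPM), Tyk2 (33.9 ± 7.99 TPM) and Jak2 (28.2 ± 4.58 TPM) came next, with ranges that overlapped from each to its neighbour. Jak3 stood at 17.4 ± 2.45 TPM, above Socs3 (3.79 ± 0.519 TPM) and Socs1 (1.76 ± 0.619 TPM). Cish (0.182 ± 0.161 TPM) and Socs2 (0.0862 ± 0.0747 TPM) were lowest and overlapped each other. In every WT library the 6 kinase and STAT genes lay above the 4 SOCS genes.

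In the knockout, Stat6 (191 ± 18.4 TPM) and Jak1 (123 ± 11.7 TPM) again led. Tyk2 (45.4 ± 1.01 TPM) and Stat3 (45 ± 0.591 TPM) overlapped, and they exchange places when the longest transcript replaces the merged exons as length. Jak2 (34.7 ± 4.3 TPM) and Jak3 (14.8 ± 0.687 TPM) followed without overlap. Socs3 (1.59 ± 0.368 TPM) and Socs1 (1.39 ± 0.312 TPM), which were apart in WT, overlapped in the knockout. Socs2 (0.284 ± 0.0959 TPM) stood above Cish (0.0879 ± 0.00426 TPM), on 46 and 10 reads in all.

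**Figure D2:**
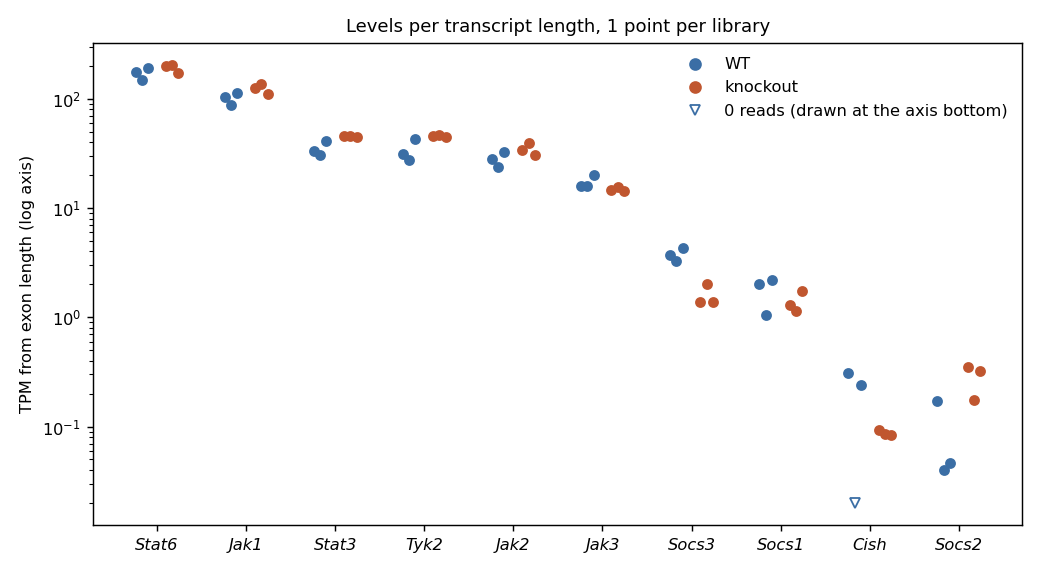
Level per transcript length of each gene (TPM, log axis) with 1 point per library, WT in blue and knockout in orange, ordered by the WT mean. Stat6 and Jak1 lie near or above 100 TPM in both genotypes, Socs3 drops from 3.79 to 1.59 TPM on average, and the WT library without a Cish read is drawn as an open triangle.

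Jak1 (ENSMUSG00000028530, chromosome 4, 101152367 to 101265282, GRCm38) encodes the kinase shared by interferon, IL-6-family, IL-10 and common gamma chain receptors. Its level was 238, 217 and 243 CPM in WT replicates 1, 2 and 3 and 262, 279 and 241 CPM in knockout replicates 1, 2 and 3. Knockout replicate 3 lay within the WT range. The log2 fold change was 0.16 (95% interval -0.02 to 0.34, edgeR adjusted p = 0.204).

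Jak2 (ENSMUSG00000024789, chromosome 19, 29251828 to 29313080) encodes the kinase of the GM-CSF, interferon gamma and erythropoietin receptors. Its libraries gave 44.5, 40.7 and 49 CPM in WT and 50.1, 56.7 and 46.6 CPM in the knockout. The ranges overlapped, with a log2 fold change of 0.19 (95% interval -0.04 to 0.42, edgeR adjusted p = 0.241).

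Tyk2 (ENSMUSG00000032175, chromosome 9, 21104068 to 21131243) encodes the kinase that partners JAK1 on type I interferon and IL-10 receptors and JAK2 on IL-12 receptors. It measured 68, 64.7 and 87.5 CPM in WT and 91.8, 91.1 and 91.3 CPM in the knockout. All knockout libraries lay above all WT libraries, but WT replicate 3 lay far closer to the knockout than the other WT libraries did. The log2 fold change of 0.31 (SE 0.108) missed the threshold (edgeR adjusted p = 0.0639). Without WT replicate 3 it was 0.46 (edgeR adjusted p = 0.0033), and with no filter on low counts 0.32 (edgeR adjusted p = 0.0254). These were the 2 of 16 other fits in which Tyk2 passed, and without the filter the median of all genes moved to 0.123. After correction for length and GC content the log2 fold change of Tyk2 was 0.16 (edgeR adjusted p = 0.256). The antisense gene 1700084C06Rik covers 8.07% of its exon bases but had only 8 reads in WT and 28 in the knockout.

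Jak3 (ENSMUSG00000031805, chromosome 8, 71676296 to 71690575) encodes the kinase bound by the common gamma chain, the shared subunit of the receptors for IL-2, IL-4, IL-7, IL-15 and IL-21. It measured 27, 29.2 and 32.1 CPM in WT and 22.8, 23.8 and 22.8 CPM in the knockout. The highest knockout value lay under the lowest WT value. Jak3 fell by 0.35 on the log2 scale (SE 0.105, edgeR adjusted p = 0.0341), the only kinase gene of the family to pass. The call was lost without WT replicate 2 (adjusted p = 0.0605), WT replicate 3 (0.0941), knockout replicate 1 (0.127), knockout replicate 2 (0.0735) or knockout replicate 3 (0.0604), and also after thinning all libraries to the smallest depth (0.0653). Insl3, which shares 7.55% of the exon bases of Jak3 on the same strand, had 12 and 15 reads.

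Ratios between kinase genes within a library do not depend on how libraries are scaled. The TPM ratio of Jak3 to Jak1 was 0.153, 0.182 and 0.178 in WT and 0.118, 0.115 and 0.128 in the knockout. The ratio to Jak2 went from 0.62 ± 0.0527 to 0.428 ± 0.033. That to Tyk2 went from 0.52 ± 0.0549 to 0.325 ± 0.00911, with no overlap in any of the 3. Each gave a two-sided exact permutation p of 0.1, the smallest that 3 against 3 libraries allow (0.16 adjusted over the 8 ratios computed). All 3 share Jak3 as numerator, so they are not separate observations. Their log2 changes were -0.51 (Jak1), -0.54 (Jak2) and -0.67 (Tyk2), beside -0.35 for Jak3 itself. Jak1, Jak2 and Tyk2 stood higher in the knockout without passing (0.16, 0.19 and 0.31), which widens these ratios. Jak2 to Jak1 stood at 0.276 ± 0.0119 in WT and 0.281 ± 0.00928 in the knockout (exact permutation p = 0.5). Of the summed TPM of the 4 kinase genes, Jak3 made up 8.89% to 10.3% in WT and 6.58% to 7.08% in the knockout, and Jak1 56.3% and 56.4% on average.

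Stat3 (ENSMUSG00000004040, chromosome 11, 100885098 to 100939540) measured 99.4, 98.9 and 115 CPM in WT and 127, 123 and 127 CPM in the knockout. The knockout libraries all lay above the WT libraries and were closer to each other. Stat3 rose by 0.26 on the log2 scale (SE 0.085, edgeR adjusted p = 0.0472), just inside the threshold. After correction for gene length and GC content the value was 0.09 (adjusted p = 0.416). The call was also lost without WT replicate 1 (0.176), WT replicate 2 (0.139), knockout replicate 1 (0.158), knockout replicate 2 (0.106) or knockout replicate 3 (0.0806).

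Stat6 (ENSMUSG00000002147, chromosome 10, 127642986 to 127660957) measured 242, 221 and 248 CPM in WT and 254, 259 and 225 CPM in the knockout. The genotypes overlapped, with a log2 fold change of 0.05 (95% interval -0.13 to 0.24, edgeR adjusted p = 0.712). The TPM ratio of Stat3 to Stat6 was 0.19, 0.207 and 0.215 in WT and 0.231, 0.22 and 0.26 in the knockout, apart but close at the edge (exact permutation p = 0.1).

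Socs3 (ENSMUSG00000053113, chromosome 11, 117966079 to 117970047) encodes the inhibitor that binds the IL-6 receptor chain gp130 and JAK kinases, and is induced through STAT3. It had 33, 25 and 57 reads in WT and 20, 42 and 22 reads in the knockout, whose libraries were deeper. This gave 3.42, 3.26 and 3.72 CPM in WT and 1.16, 1.67 and 1.2 CPM in the knockout. The genotypes lay well apart, and the WT libraries were close to each other. Socs3 fell by 1.35 on the log2 scale (SE 0.261, edgeR adjusted p = 0.00299), to 0.391 of the WT level. The summed reads, 115 and 84, gave a ratio of 0.392 with an exact 95% interval of 0.292 to 0.524, which covers counting error only. Over all 16 other fits its log2 fold change ran from -1.56 to -1.26 and its adjusted p from 0.000192 to 0.0176. Of the 10 neutrophil markers, 3 fell in the same libraries, 1 rose (Mmp8, 45.8 to 70.2 CPM) and 6 did not pass. Those that fell included the early granule genes Mpo (54.3 to 29.5 CPM) and Elane (29.8 to 13.9 CPM). The B cell marker Cd79b also fell (5.25 ± 0.599 to 1.7 ± 0.247 CPM, edgeR adjusted p = 0.00027). Of 3 tested stromal markers, Col3a1 fell (2.47 ± 0.844 to 0.668 ± 0.218 CPM) and 2 did not pass. The part of these genes in the Socs3 difference was not tested.

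Relative to Stat3 in the same library, Socs3 stood at 0.114, 0.109 and 0.106 in WT and 0.0302, 0.0445 and 0.0311 in the knockout (TPM ratio). The knockout values did not reach the WT range (exact permutation p = 0.1, 0.16 adjusted over the 8 ratios).

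Socs1 (ENSMUSG00000038037, chromosome 16, 10782240 to 10785536) encodes the inhibitor of the interferon-receptor kinases and is induced by interferon gamma and IL-4. It had 18, 8 and 29 reads in WT and 19, 24 and 28 in the knockout, or 1.87, 1.04 and 1.89 CPM against 1.11, 0.953 and 1.52 CPM. The ranges overlapped because WT replicate 2 was low. The log2 fold change was -0.48, with a 95% interval from -1.23 to 0.27 (edgeR adjusted p = 0.366), so a change of the size seen for Stat3 or Jak3 was not detectable at this depth.

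Socs2 (ENSMUSG00000020027, chromosome 10, 95385362 to 95417180), a STAT5-induced brake on growth hormone signalling, had 5, 1 and 2 reads in WT and 17, 12 and 17 in the knockout. These were 0.519, 0.13 and 0.131 CPM against 0.989, 0.476 and 0.924 CPM, with WT replicate 1 inside the knockout range. The summed 8 and 46 reads gave a ratio of 3.08, with an exact 95% counting interval of 1.44 to 7.57. With no filter on low counts, edgeR gave a log2 fold change of 1.62 (adjusted p = 0.144), and DESeq2 gave 1.63 (adjusted p = 0.227). It passed the filter when WT replicate 1, 2 or 3 or knockout replicate 2 was dropped, with log2 fold changes of 2.50, 1.41, 1.15 and 1.91 and edgeR adjusted p of 0.0785, 0.204, 0.3 and 0.0676. In these fits only knockout libraries reached the minimum of the filter. Entry to the test thus depended on the group where Socs2 was higher, and these values are no separate support for a rise.

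Cish (ENSMUSG00000032578, chromosome 9, 107296026 to 107302784) encodes CIS, a STAT5-induced inhibitor of cytokine receptors such as that of GM-CSF. It had 6, 0 and 7 reads in WT and 3, 4 and 3 in the knockout. WT replicate 2, the shallowest library, gave 0 CPM, which allows up to 0.391 CPM. The summed 13 and 10 reads gave a ratio of 0.413 with an exact 95% counting interval of 0.162 to 1.02, and no direction can be read from it. The fit with no filter gave -1.15 (edgeR adjusted p = 0.633).

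**Figure D3:**
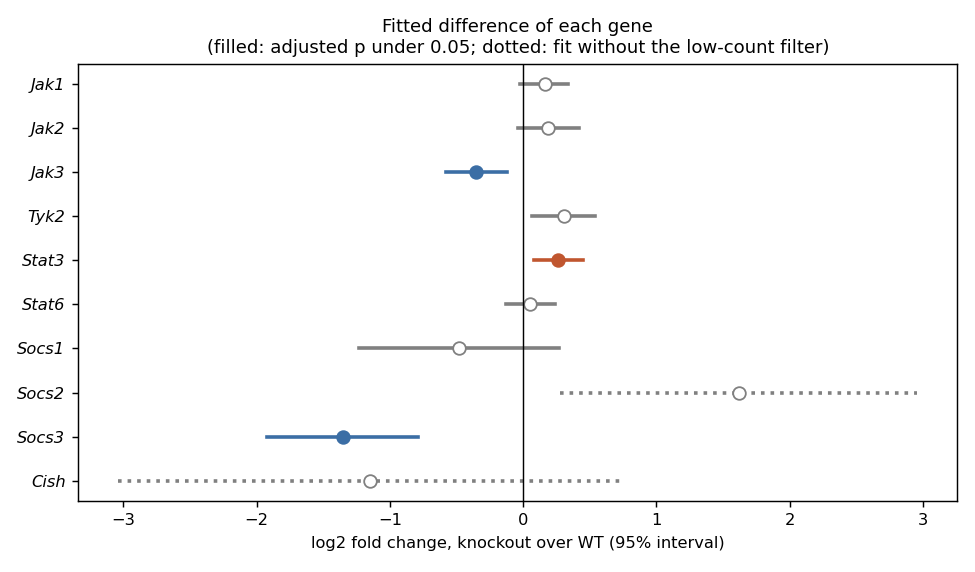
Log2 fold change of each gene, knockout over WT, with its 95% interval from the edgeR fit; filled points passed an adjusted p of 0.05 and dotted intervals come from the fit without the low-count filter. Socs3 (-1.35) stands apart from 0, Jak3 (-0.35) and Stat3 (0.26) lie close to it, and the intervals of Socs2 and Cish are wide.

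**Figure D4:**
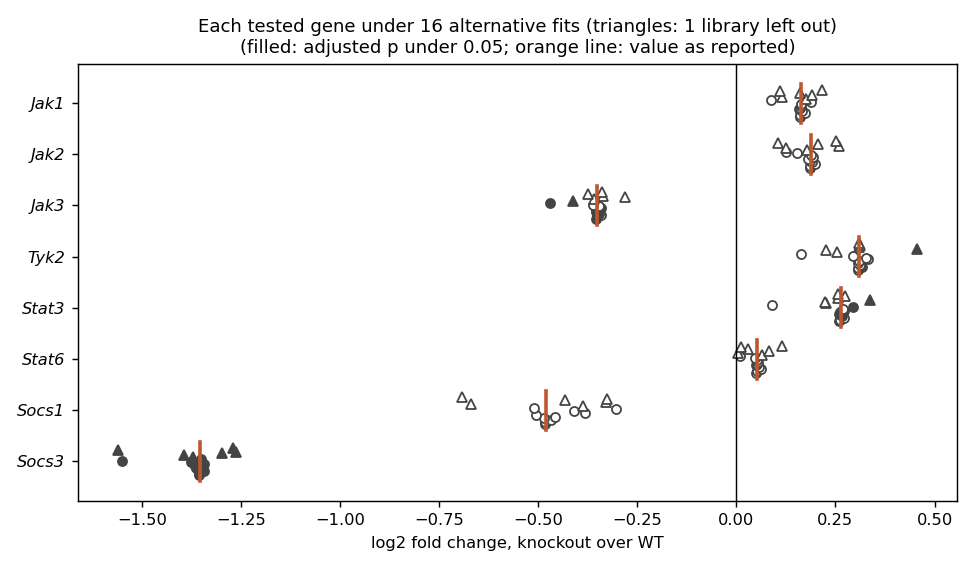
Log2 fold change of the 8 tested genes (knockout over WT) under 16 alternative fits; triangles leave out 1 library, filled symbols passed an adjusted p of 0.05 and orange lines mark the reported values. Socs3 is filled throughout, between -1.56 and -1.26, while Jak3 and Stat3 are filled in 8 and 7 of the fits.

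By summed level per length, the kinase genes stood at 181 ± 27.1 TPM in WT and 218 ± 17.6 TPM in the knockout (exact permutation p = 0.2), and Stat3 with Stat6 at 205 ± 26.7 and 236 ± 19 TPM (p = 0.2 by the same exact test). The 4 SOCS genes summed to 6.26, 4.39 and 6.81 TPM in WT and 3.11, 3.41 and 3.53 TPM in the knockout (exact permutation p = 0.1). All knockout libraries lay below all WT libraries for the SOCS sum, of which Socs3 made up 66.2% ± 7.97 in WT and 47.3% ± 10.3 in the knockout.

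Other genes of the pathway were counted from 8 lists, which share some genes. With each gene counted once, 112 were tested, of which 27 rose and 12 fell. Over all tested genes, 9.77% rose and 9.61% fell. The lists were chosen with earlier results of these data known, so their counts describe the lists and are no independent test. Genes that passed the low-count filter only through the group where they were higher are included. Among 8 family genes outside the 10, all tested, 1 was higher and 0 were lower (median log2 fold change 0.09, and 0 over all tested genes). At an unadjusted edgeR p under 0.05, 2 were higher and 0 were lower, and DESeq2 and both limma fits also gave 0 lower. The gene that rose past the adjusted threshold was Stat4, the STAT of IL-12 signalling. It went from 0.104, 0.391 and 0.653 CPM to 1.45, 1.79 and 1.41 CPM (log2 fold change 1.87, edgeR adjusted p = 0.013), on 14 and 96 reads. Stat4 passed the low-count filter only through its knockout libraries, because WT replicates 1 and 2 lay under the minimum. Without WT replicate 1 its call was lost (adjusted p = 0.0671). Stat5a (29.7 and 27.3 CPM), Stat5b (75 and 70 CPM) and Stat2 (47.6 and 54.8 CPM) did not pass.

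Of 27 tested receptor chains that use JAKs, 11 rose and 2 fell, against 9.77% and 9.61% of all tested genes. The other 14 chains fell short of the threshold, and the median log2 fold change of the list was 0.15. Il21r, a partner of the common gamma chain and so of JAK3, rose from 4.36, 4.83 and 4.18 CPM to 51.1, 48.2 and 56.3 CPM (log2 fold change 3.55, SE 0.129). Csf2rb2, the beta chain of the mouse IL-3 receptor, rose from 213 ± 5.01 to 448 ± 5.68 CPM, although reads can be shared with its near-identical neighbour Csf2rb. Epor, the erythropoietin receptor that signals through JAK2, fell from 1.66, 1.43 and 2.35 CPM to 0.174, 0.159 and 0.326 CPM (-3.08, SE 0.445). Epor passed the low-count filter only through its WT libraries. Il12rb1, among the 11 that rose, had 12 reads in WT and 63 in the knockout (0.39 and 1.02 CPM). Genes this low can enter the test through the group where they are higher. The calls of Epor and Il12rb1 therefore add no separate support to the counts of receptor chains. Il12rb2 fell by 0.67, but lost its call when WT replicate 1, WT replicate 3, knockout replicate 1 or knockout replicate 3 was dropped. The common gamma chain gene Il2rg (72.8 and 66.1 CPM) and the IL-10 receptor genes Il10ra (169 and 157 CPM) and Il10rb (194 and 190 CPM) did not pass; these were chosen after their values were seen. The number of receptor genes that rose was 7 without WT replicate 1 and 7 without knockout replicate 1, and dropping any of the 4 libraries just named left 1 that fell.

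Ligand genes were mostly too low to test. Of 31 genes 7 were tested, of which 3 fell and 0 rose (median log2 fold change -0.24), against 9.61% and 9.77% of all tested genes. At an unadjusted edgeR p under 0.05 there was 1 higher, Osm (3.61 and 5.21 CPM), and DESeq2 and both limma fits gave 0 higher. Il10, whose product signals through JAK1, TYK2 and STAT3, fell from 12.7, 8.74 and 13.2 CPM to 4.13, 3.57 and 2.77 CPM (-1.74, SE 0.201, edgeR adjusted p = 7e-05). Clcf1, an IL-6 family cytokine, fell from 4.11 ± 0.535 to 1.06 ± 0.523 CPM (-1.95, SE 0.333). Both calls held in all 16 other fits.

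Of 19 brakes other than SOCS genes, 3 rose and 2 fell, against 9.77% and 9.61% of all tested genes, and 14 missed the threshold. The ubiquitin ligase genes Cblb (45.2 ± 4.59 to 69.1 ± 6.09 CPM, log2 fold change 0.61) and Cbl (51.4 ± 13.1 to 81.8 ± 7.54 CPM, 0.66) rose, though Cbl did not pass after correction for length and GC content (0.39, adjusted p = 0.0546). Elob and Rnf7, which encode parts of the cullin ligases that SOCS proteins recruit, fell by 0.36 and 0.35 on the log2 scale. Elob lost its call when WT replicate 1, knockout replicate 1 or knockout replicate 3 was dropped, and Rnf7 did so for all libraries but WT replicate 3. After correction for length and GC content, 1 brake gene rose and 0 fell, and without WT replicate 3, 5 rose. The number that fell was 0 without WT replicate 1, knockout replicate 1 or knockout replicate 3, and 1 without WT replicate 2 or knockout replicate 2.

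Of 14 IL-10 and STAT3 targets, 4 rose and 0 fell (median -0.02), against 9.77% and 9.61% of all tested genes. The survival gene Bcl2l1 (172 ± 25.5 to 258 ± 30.1 CPM, 0.59) and the TNF receptor gene Tnfrsf1b (559 ± 27.3 to 766 ± 10.4 CPM, 0.45) were among those that rose. At an unadjusted edgeR p under 0.05, 1 was lower, Pim1 (40.3 and 34.5 CPM); DESeq2 and both limma fits gave 0 lower, and 1 fell without WT replicate 3. Of 12 tested IL-4 and STAT6 targets 4 rose, 5 fell and 3 did not pass (median 0.05), against 19.4% of all tested genes called in either direction. The beta-glucan receptor gene Clec7a (125 ± 13.9 to 222 ± 31.1 CPM) and the transcription factor gene Klf4 (7.91 ± 0.774 to 14 ± 1.23 CPM) rose. The lectin gene Clec10a (28.3 ± 6.4 to 4.01 ± 0.483 CPM) and the scavenger receptor gene Cd36 (3880 ± 299 to 2260 ± 208 CPM) fell, and 2 of these targets rose without WT replicate 1. Cd36 is also a known target of PPAR gamma, a receptor that pairs with RXR. The part of this pair in the fall of Cd36 was not tested.

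Of 10 tested STAT5 targets, 3 rose and 0 fell (median 0.03), against 9.77% and 9.61% of all tested genes. Bcl2 (9.1 ± 0.606 to 15.1 ± 1.18 CPM) and Bcl2l1 were among those that rose. At an unadjusted edgeR p under 0.05, 4 were higher and 1 was lower, again Pim1. DESeq2 and both limma fits gave 0 lower. Of 20 type I interferon targets, 2 rose and 0 fell (median 0.14), against the same 9.77% and 9.61%. Those that rose were Rsad2 (14.3 ± 2.38 to 24.2 ± 2.47 CPM) and Ifit2 (16.3 ± 2.84 to 25.5 ± 3.65 CPM). Without WT replicate 1 or knockout replicate 1, 1 of them rose, since Ifit2 lost its call, and without WT replicate 3, 1 fell. At an unadjusted edgeR p under 0.05, 5 were higher and 1 was lower, Isg15 (log2 fold change -0.64). DESeq2 and both limma fits gave 0 lower, and limma on the authors' log2 values gave 3 higher.

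**Figure D5:**
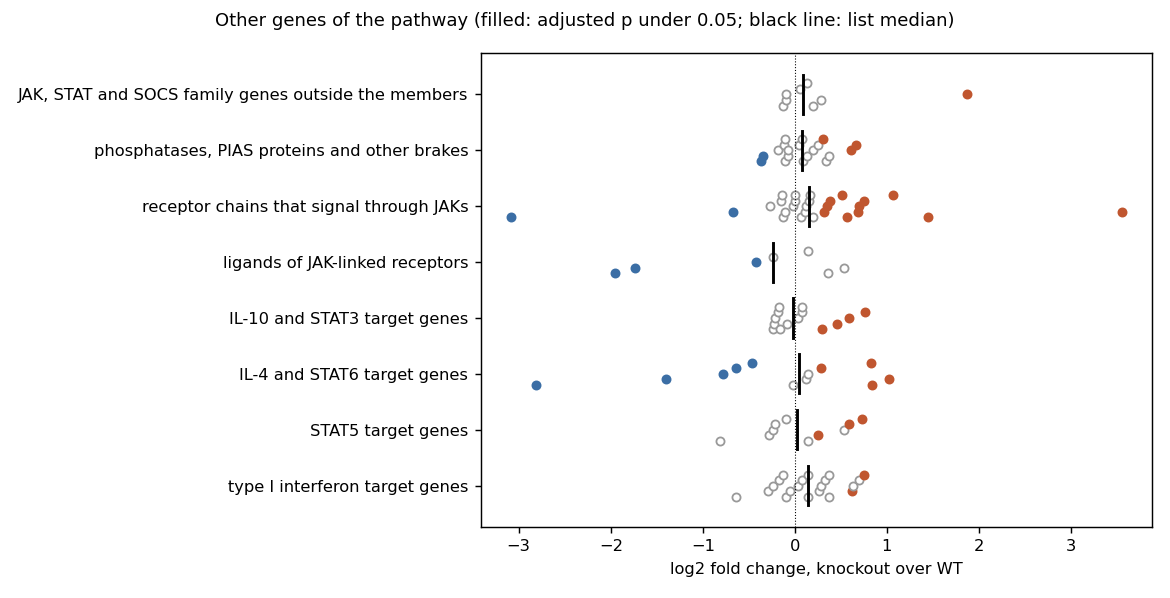
Log2 fold change, knockout over WT, of every tested gene in the 8 lists, 1 point per gene; filled orange points rose, filled blue points fell, open points did not pass, and black lines are list medians. Receptor chains hold 11 points that rose, led by Il21r at 3.55, and ligands hold 3 that fell. Over all tested genes, 9.77% rose and 9.61% fell.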

How the data were processed

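Messenger RNA of 6 macrophage libraries was sequenced. Per the submitters' processing notes, TopHat2 2.0.7, DESeq and build mm10 (GRCm38) were used; for the counting program, annotation release and strand setting the sources used here give nothing, so reads of overlapping or near-identical genes can be misplaced. The authors deposited raw counts per Ensembl gene, used for all main results, and a second table of log2 normalized values, each the log2 of the count times 1 constant per library. In its knockout columns a count of 1 is listed as 0.

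Differential expression was tested on the counts with edgeR 4.0.16 under R 4.3.3: robust quasi-likelihood F test, TMM factors, filterByExpr (minimum count 10, minimum total 15), genotype alone in the model, Benjamini-Hochberg adjustment over all tested genes, threshold 0.05. SE is the absolute log2 fold change over the square root of F. Symbols matched 45106 of 45193 identifiers; positions and exon lengths are from GENCODE M21 (GRCm38). The procedure was tested on simulated data with the same dispersion for every gene. The planted changes were larger than those of Jak3 and Stat3, so the simulation does not bear on calls of that size. Alternatives used RLE or upper-quartile factors, other filters, DESeq2 1.42.0, limma 3.58.1 (voom, and log2 of the authors' linear values plus 1), a replicate block, thinned counts, length and GC offsets, and each library left out. Named genes were the 10, the label checks and, per list, up to 2 that rose and 2 that fell by smallest adjusted p; others are marked or given as list counts, markers or examples chosen after their values were seen. The genes and lists were chosen with earlier results of these data known. Some list genes are not reported here. Intervals on reads cover counting error only.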

Additional observations from a re-analysis of the deposited data

How the results depend on the processing

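The fall of Socs3 kept its direction and its call in all 16 alternatives. Jak3 and Stat3 kept their direction in all 16, with log2 fold changes from -0.47 to -0.28 and from 0.09 to 0.34, and their call in 8 and 7. With the replicate number as a block, 1 of the 8 genes passed (Socs3; 0 higher, 1 lower), and 1375 genes of all tested (709 higher, 666 lower) instead of 2327 (1173 and 1154). Deviations of same-numbered libraries correlated at 0.091, -0.404 and -0.343, and those of differently numbered libraries at -0.181 to 0.441. With 3 libraries per group, whose deviations are tied to each other, these values cannot decide whether the numbers pair the libraries. Among the 10, 0 rose with upper-quartile factors or the length and GC offsets, and 1 fell with no filter or after thinning. Leaving out 1 library gave 1 to 3 changed genes among the 10 (0 to 2 higher, 1 to 2 lower) and 1286 to 2607 of all genes (667 to 1278 higher, 619 to 1329 lower). The lowest of these came without WT replicate 1 and 1383 without knockout replicate 1. Under the block 7 receptor chains rose and 1 fell, and 0 brakes fell. Thinning left 0 family genes outside the 10 that rose, and the offsets gave 1 that fell. Thinning or the offsets left 1 receptor chain that fell, and either limma fit 1 brake that fell. With no filter 1 type I interferon target fell; the median of all genes then moved to 0.123. Rxra changed sign with the offsets (-0.081, adjusted p = 0.493). The cause of these changes was not tested. Depth limits Socs1, Socs2 and Cish, with 55, 8 and 13 reads in WT.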
